A study of Rattus norvegicus with 24 samples.

Results

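The 10 genes described here encode transducers and regulators that act below opioid and dopamine receptors: 5 G protein alpha subunits (Gnal, Gnai1, Gnai2, Gnai3 and Gnao1), the gamma subunit Gng7, the RGS proteins Rgs4 and Rgs9, and the arrestins Arrb1 and Arrb2. They were taken by gene symbol from the 23950 genes of the tables, and the list was chosen with earlier results of these data known. Each symbol matched 1 Ensembl gene in every library: ENSRNOG00000010440 (Gnal), ENSRNOG00000019857 (Gng7), ENSRNOG00000057096 (Gnai1), ENSRNOG00000016592 (Gnai2), ENSRNOG00000019465 (Gnai3), ENSRNOG00000019482 (Gnao1), ENSRNOG00000002773 (Rgs4), ENSRNOG00000003800 (Rgs9), ENSRNOG00000030404 (Arrb1) and ENSRNOG00000019308 (Arrb2). All 10 passed the filter on low values in every comparison. RNA-Seq had been run on the nucleus accumbens (NAc) of 24 Sprague Dawley rat pups at P14, with 4 pups from separate litters in each of 6 groups. F1 IUO pups were born to F0 dams given oxycodone (oxy) by oral gavage at 10 mg/kg/day for 5 days, then in steps of 0.5 mg/kg/day over 10 days up to 15 mg/kg/day, before mating and on through gestation until weaning. F1 PNO pups were born to dams given 15 mg/kg/day from parturition to weaning, and F1 SAL pups to saline dams. The F2 SAL, F2 PNO and F2 IUO pups came from F1 animals of these lines that had no oxy as adults and were bred with naive males. Pups were male or female, and the sex of each is not given.

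Heterotrimeric G proteins carry the signal of a receptor into the cell through an alpha subunit that binds GTP and a paired beta and gamma subunit. In the striatum, Gnal (Golf alpha) couples the dopamine and adenosine receptors encoded by Drd1 and Adora2a to adenylyl cyclase, and Gng7 is its gamma partner there. The Gi and Go subunits (Gnai1, Gnai2, Gnai3, Gnao1) couple opioid and D2 receptors to inhibition of the cyclase and to ion channels. RGS proteins speed the hydrolysis of GTP and so end the signal, and Rgs9 is a striatum-enriched member of that family. The arrestins (Arrb1 and Arrb2) bind phosphorylated receptors, stop their coupling to G proteins and bring them to endocytosis.

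Levels are FPKM (fragments per kilobase of transcript, scaled to the library's total), and fold changes are on the log2(FPKM + 0.1) scale. A gene was called at an unadjusted limma p under 0.05, the study's threshold for p, and the Benjamini-Hochberg adjusted p over all genes tested is given beside it. No member reached an adjusted p under 0.05 in any of the 9 comparisons or 3 interaction tests between generations, so every call below rests on the unadjusted p. A library's FPKM summed to between 535866 (F1 IUO 4) and 766781 (F2 PNO 1), and read depth was not given. All 12 listed markers of striatal projection neurons (SPN) were above 0 in every group. The summed level of 7 cortex markers ran from 10.5 FPKM in F1 SAL 3 and 24.8 FPKM in F2 PNO 1 to 369.98 FPKM in F2 IUO 2, that of 6 thalamus markers from 22.8 to 302 FPKM, and that of 8 choroid plexus markers from 5.58 to 12257 FPKM. The highest choroid plexus level was that of F2 IUO 1. The summed SPN markers were lowest in F2 IUO 1 (499 FPKM) and F2 IUO 3 (524 FPKM). In bulk tissue, fewer cells of one type and less RNA per cell cannot be told apart.

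The RefSeq table (GRCr8) holds the start region of 6 members: Gnal, Gng7, Gnai1, Gnao1, Rgs4 and Rgs9. The 250 bases before the start are printed for Gng7 and Rgs9, which moved together across libraries, and for Rgs4, which was inverse to both (group-centred r = -0.387 with Gng7 and -0.354 with Rgs9). Capitals mark matches, on either strand, to any of 6 searched motifs. These were TGACGTCA (the full cAMP response element, in 1.59% of the 33469 windows of the table), its core TGACG (18.2%), the GC box GGGCGG (30.5%), the TATA box TATAAA (12.9%), the E-box CACGTG (5.59%) and the forkhead motif GTAAACA (3.21%).
Gng7 (chr7:9365139-9365388, plus strand): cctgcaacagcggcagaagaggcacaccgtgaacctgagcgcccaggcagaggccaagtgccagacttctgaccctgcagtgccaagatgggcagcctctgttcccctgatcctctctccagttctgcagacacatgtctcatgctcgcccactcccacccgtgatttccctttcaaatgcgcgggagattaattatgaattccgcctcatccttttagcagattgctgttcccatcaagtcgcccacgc
Rgs9 (chr10:94770388-94770637, minus strand): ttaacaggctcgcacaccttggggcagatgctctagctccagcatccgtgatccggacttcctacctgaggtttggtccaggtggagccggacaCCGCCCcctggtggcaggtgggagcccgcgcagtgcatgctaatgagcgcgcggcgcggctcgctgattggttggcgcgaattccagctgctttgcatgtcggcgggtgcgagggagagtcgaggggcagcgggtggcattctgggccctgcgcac
Rgs4 (chr13:84475885-84476134, minus strand): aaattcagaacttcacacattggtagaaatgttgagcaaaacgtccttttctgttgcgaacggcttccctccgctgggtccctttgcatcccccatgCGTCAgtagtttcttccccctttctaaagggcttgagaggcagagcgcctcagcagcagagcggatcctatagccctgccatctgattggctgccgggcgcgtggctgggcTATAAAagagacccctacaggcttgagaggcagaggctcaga
The Gng7 window held 0 matches. The Rgs9 window held 1 match, to the GC box. The Rgs4 window held 1 match to the response element core and 1 to the TATA box, the latter nearer to the start. The GC content was 56.4% for Gng7, 65.6% for Rgs9 and 54.4% for Rgs4, beside a median of 51.2% over all windows. The matches describe these letters only, and the series has no measurement at these promoters.

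All 10 genes were readily measured in P14 NAc. Averaged over the 24 libraries, the highest level was that of Gnao1 at 204 ± 34.1 FPKM (SD), followed by Gng7 at 176 ± 56.8, Gnai2 at 170.2 ± 18.8, Gnal at 71.9 ± 18.9, Rgs4 at 64.2 ± 13.0 and Rgs9 at 45.0 ± 12.3. The lower part of the order held Gnai1 at 38.1 ± 10.4 FPKM, Arrb2 at 25.3 ± 3.31, Gnai3 at 14.0 ± 2.43 and Arrb1 at 10.3 ± 3.53. Per unit length, Gnai2 RNA was thus above Gnai1 and Gnai3 RNA in every library. The 10 genes differed in how far single libraries spread: the highest value was 1.45 times the lowest for Gnai2 and 1.55 times for Arrb2, but 12.2 times for Arrb1 and 6.67 times for Gnai1. For both Arrb1 and Gnai1 the lowest library was F2 PNO 1 (1.54 and 9.03 FPKM). When the 6 groups were put in order of their mean for each gene, 49 of 50 neighbouring pairs had overlapping values. The exception was Gnal, whose values in F1 PNO all exceeded those in F2 IUO.

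**Figure D1:**
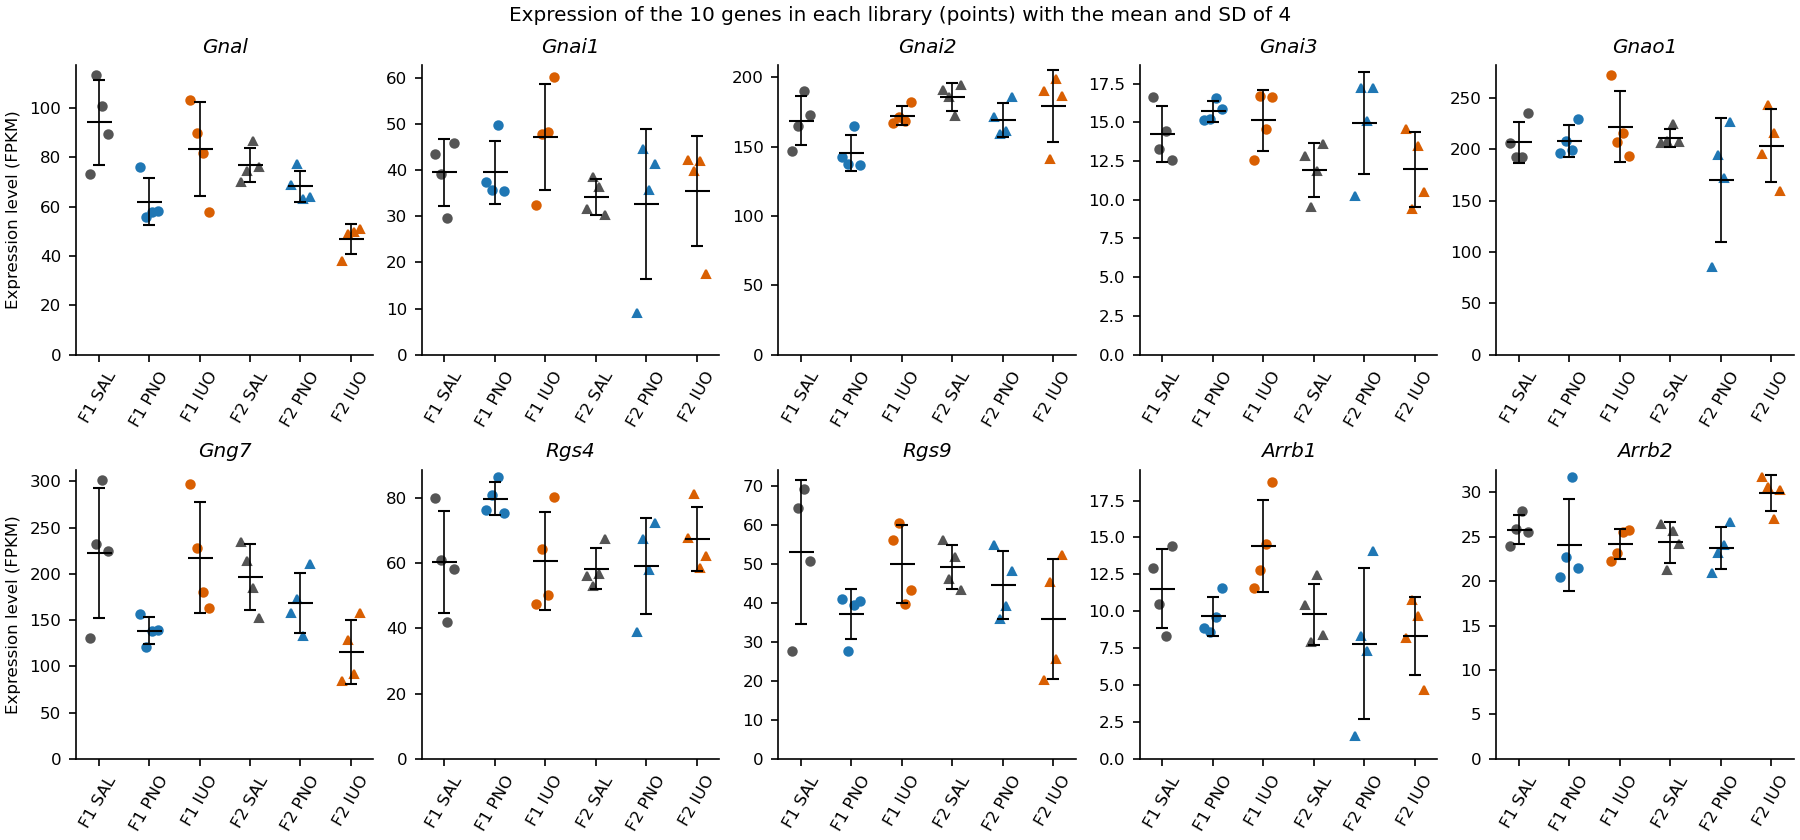
Expression level (FPKM, from 0) of each of the 10 genes in the 6 groups; points are single libraries (circles F1, triangles F2; grey SAL, blue PNO, orange IUO), and bars are the mean and SD of 4. The 4 F2 IUO libraries have the lowest mean of the 6 groups for Gnal (37.8 to 50.8 FPKM) and the highest for Arrb2 (27.0 to 31.7 FPKM), and F2 PNO 1 is far below its group for Gnai1, Gnao1 and Arrb1.

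Within F1, the calls fell on Gnal, Gng7, Gnai2, Rgs4, Rgs9 and Arrb1, and all involved the PNO group. Between F1 IUO and F1 SAL, 0 of 10 members were called, where 3.91% of all 17380 genes were; the lowest member p was 0.14. Between F1 PNO and F1 SAL, 3 of 10 were called (13.9% of genes): Gnal and Gng7 were lower in PNO (7.83% of genes lower) and Rgs4 was higher (6.11% higher). Without F1 SAL 1, a library low in SPN markers, 6 were called, and without F1 PNO 2 only Gnal was. Between F1 IUO and F1 PNO, 6 of 10 were called (16.5% of genes). Of these, Gnal, Gng7, Gnai2, Rgs9 and Arrb1 were higher in IUO (10.1% of genes higher) and Rgs4 was lower (6.41% lower). Gng7, Gnai2 and Arrb1 had groups that did not overlap there, as 10.5% of genes did. Without F1 PNO 2 the calls numbered 2, and without F1 IUO 2 they numbered 3. These 3 comparisons share their groups in pairs, so their results are not independent of each other.

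Within F2, the calls fell on Gnal, Gng7 and Arrb2, and all involved the IUO group. Between F2 IUO and F2 SAL, 3 of 10 members were called (8.49% of genes): Gnal and Gng7 were lower in IUO (4.97% of genes lower) and Arrb2 was higher (3.52% higher). Gnal and Arrb2 did not overlap between these groups, as 5.11% of genes did. Without F2 IUO 4, Gnai1 (higher) and Rgs9 (lower) were called too, and without F2 SAL 2 or F2 IUO 1 the calls numbered 2. Between F2 PNO and F2 SAL, 0 of 10 were called, where 10.8% of genes were, with a lowest member p of 0.15. Between F2 IUO and F2 PNO, the same 3 genes were called in the same directions (7.07% of genes called, 2.48% lower and 4.59% higher), and Gnal and Arrb2 again did not overlap (4.74% of genes). The IUO libraries are shared by the first and the third of these comparisons. Where a 1.5-fold ratio of means was also asked for, 2 members passed in F1 PNO against SAL (Gnal and Gng7, with 4.48% of genes), 1 in F1 IUO against PNO (Gng7, 7.08%) and 2 in F2 IUO against SAL (Gnal and Gng7, 4.19%), and none differed 2-fold.

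**Figure D2:**
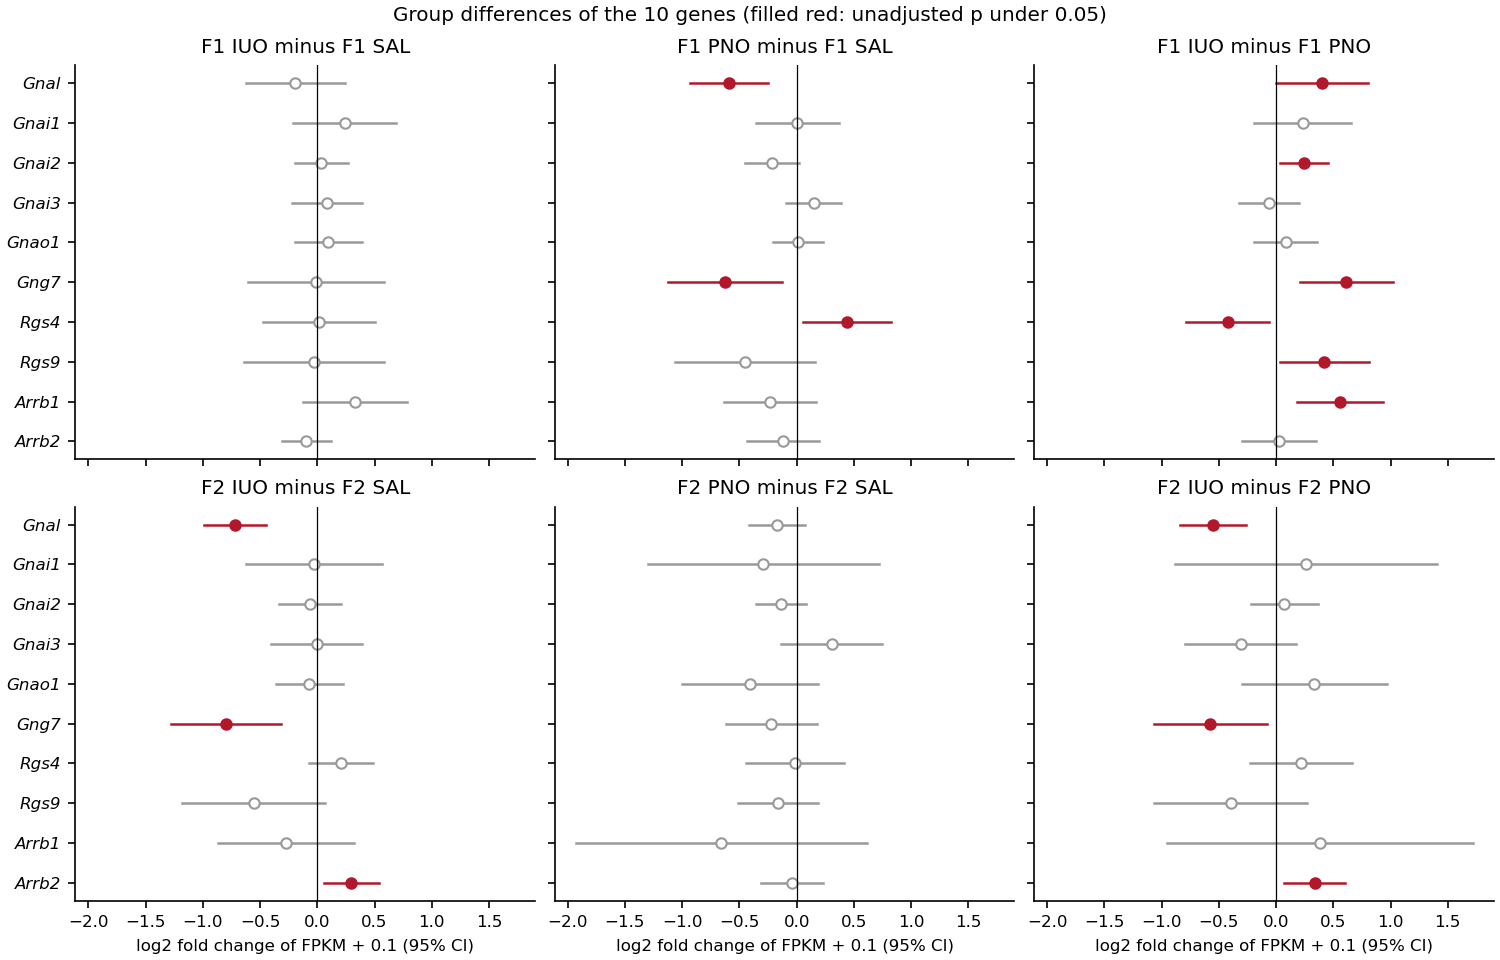
Fold change of each gene in the 6 treatment comparisons (x axis, log2 fold change of FPKM + 0.1 with its 95% interval from limma; y axis, genes); filled red points had an unadjusted p under 0.05. Gnal and Gng7 lie below 0 in F1 PNO minus SAL and in F2 IUO minus SAL, and above 0 in F1 IUO minus PNO.

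Gnal had the smallest p of the members in F2. Its values were 70.04, 74.5, 86.6 and 76.2 FPKM in F2 SAL, 68.6, 77.1, 63.2 and 64.0 FPKM in F2 PNO and 37.8, 48.9, 49.6 and 50.8 FPKM in F2 IUO. All 4 F2 IUO libraries were below all 8 other F2 libraries. The F2 IUO mean was 46.8 ± 6.04 FPKM and the F2 SAL mean 76.8 ± 7.01 FPKM (SD, n = 4), a ratio of 0.609 (log2 fold change -0.72, SE 0.12, exact permutation p = 0.0286, limma p = 0.000162, adjusted p = 0.202). By p, Gnal ranked 13 of the 17097 genes tested there. An exact permutation p of 0.0286 is the smallest that 4 against 4 libraries allow. Against F2 PNO the ratio was 0.686 (log2 fold change -0.55, SE 0.128, exact permutation p = 0.0286, limma p = 0.00189, adjusted p = 0.425). F2 PNO itself did not pass against F2 SAL, with a log2 fold change of -0.17 (95% interval -0.42 to 0.07).

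In F1, it was the PNO group that held the low Gnal values. They were 73.1, 114, 101 and 89.6 FPKM in F1 SAL, 76.2, 55.8, 58.0 and 58.2 FPKM in F1 PNO and 103, 89.8, 81.7 and 58.0 FPKM in F1 IUO. F1 PNO 1 reached into the saline range, which starts at 73.1 FPKM in F1 SAL 1, and the other three PNO libraries lay under it. The mean was 62.1 ± 9.52 FPKM in PNO and 94.2 ± 17.2 FPKM in SAL (log2 fold change -0.59, SE 0.151, exact permutation p = 0.0571, limma p = 0.00321, adjusted p = 0.233). F1 IUO overlapped both groups, with -0.19 (95% interval -0.62 to 0.24) against SAL on the log2 scale. Against PNO, F1 IUO was higher by only just enough to be called (log2 fold change 0.40, SE 0.179, exact permutation p = 0.0857, limma p = 0.0492, adjusted p = 0.301), and that call was lost when any 1 of F1 PNO 2, F1 PNO 3, F1 PNO 4, F1 IUO 1, F1 IUO 2 or F1 IUO 3 was left out (log2 fold change 0.29 to 0.57 with 1 library left out).

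Of the Gi and Go alpha subunits, only Gnai2 was called in any comparison. Gnai2, the most abundant of the Gi subunits here, was 143, 138, 165 and 137 FPKM in F1 PNO, 147, 165, 190.4 and 173 FPKM in F1 SAL and 167, 171, 168 and 183 FPKM in F1 IUO. The 4 F1 IUO libraries all lay above the 4 F1 PNO libraries, by a ratio of 1.19 (log2 fold change 0.25, SE 0.0934, exact permutation p = 0.0286, limma p = 0.0254, adjusted p = 0.236). With upper-quartile rescaling this became 0.13 (adjusted p = 0.528), and leaving out F1 PNO 1, F1 PNO 2, F1 PNO 4, F1 IUO 2 or F1 IUO 4 also ended the call (log2 fold change 0.22 to 0.31 with 1 library left out). In F2, Gnai2 ran from 141 to 199 FPKM in IUO and from 172 to 195 FPKM in SAL, with a log2 fold change of -0.07 (95% interval -0.34 to 0.21). Gnai3, the least abundant of the 5 alpha subunits described here, was called in 0 of 9 comparisons. Its group means lay between 11.9 FPKM in F2 SAL and 15.7 FPKM in F1 PNO.

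Gnai1 and Gnao1 were also called in 0 of 9 comparisons, and single libraries set their spread in F2. Gnai1 was 31.7, 38.5, 36.3 and 30.3 FPKM in F2 SAL, 9.03, 44.6, 35.8 and 41.4 FPKM in F2 PNO and 42.3, 39.9, 42.0 and 17.6 FPKM in F2 IUO. F2 PNO 1 and F2 IUO 4 were each far below the others of their group. The Gnai1 fold change of F2 IUO against SAL was -0.03 (95% interval -0.62 to 0.57); without F2 IUO 4 it turned to 0.28 (adjusted p = 0.632). That of F2 PNO against SAL was -0.29 (95% interval -1.30 to 0.72), and 0.25 (adjusted p = 0.486) without F2 PNO 1. Gnao1, the main alpha subunit of brain, was 85.7, 194, 172 and 227 FPKM in F2 PNO and 206, 208, 224 and 207 FPKM in F2 SAL. F2 PNO 1 was again lowest, and the fold change of -0.40 became -0.10 (adjusted p = 0.744) without it. F2 PNO 1 was also the library with the fewest cortex marker transcripts in F2, at 24.8 FPKM where the other F2 PNO libraries had 127 to 326 FPKM. Its 7 oligodendrocyte markers summed to 3956 FPKM, the highest of the 24 libraries. The part of tissue composition in these low values was not tested.

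Gng7, the gamma subunit that pairs with Golf alpha in striatum, had the directions of Gnal. In F2 its values were 235, 214, 185 and 152 FPKM in F2 SAL, 158, 173, 133 and 210.2 FPKM in F2 PNO and 83.8, 129, 91.2 and 158 FPKM in F2 IUO. F2 IUO 1, F2 IUO 2 and F2 IUO 3 lay below every saline library and F2 IUO 4 did not. The mean was 116 ± 34.6 FPKM in IUO and 196 ± 35.8 FPKM in SAL, a ratio of 0.588 (log2 fold change -0.79, SE 0.215, exact permutation p = 0.0571, limma p = 0.00442, adjusted p = 0.436). Against F2 PNO it was lower as well (log2 fold change -0.57, SE 0.22, exact permutation p = 0.0857, limma p = 0.0276, adjusted p = 0.644), a call lost without F2 PNO 2, F2 PNO 4, F2 IUO 1 or F2 IUO 3 (log2 fold change -0.74 to -0.43 with 1 library left out).

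In F1, Gng7 was 131, 232, 302 and 225 FPKM in F1 SAL, 157, 121, 138 and 139 FPKM in F1 PNO and 297, 228, 180.4 and 163 FPKM in F1 IUO. PNO values sat close together at the lower end, and the F1 SAL values spread from 131 to 302 FPKM. F1 PNO was lower than F1 SAL with a ratio of 0.623 (log2 fold change -0.62, SE 0.223, exact permutation p = 0.114, limma p = 0.0197, adjusted p = 0.286), a call lost without F1 SAL 3, at -0.46 (adjusted p = 0.427), or F1 PNO 2, at -0.56 (adjusted p = 0.552). Every F1 IUO library exceeded every F1 PNO library, with a ratio of 1.57 (log2 fold change 0.61, SE 0.182, exact permutation p = 0.0286, limma p = 0.00753, adjusted p = 0.161). F1 IUO and F1 SAL had nearly the same mean, and their log2 fold change of -0.01 (95% interval -0.60 to 0.58) leaves room for a change in either direction.

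Of the RGS genes, Rgs9 had the direction of Gnal and Gng7. Its SD was 42.9% of its mean in F2 IUO, above Gng7 (29.9%) and Gnal (12.9%). In F1 IUO it was 19.8%, below Gng7 (27.6%) and Gnal (22.9%). Its values were 56.0, 46.2, 51.7 and 43.4 FPKM in F2 SAL and 20.2, 45.4, 25.7 and 52.4 FPKM in F2 IUO. Both F2 IUO 1 and F2 IUO 3 were far under the saline libraries, while F2 IUO 2 and F2 IUO 4 were within their range. The SPN markers summed to 499 and 524 FPKM in F2 IUO 1 and F2 IUO 3, and to 935 and 1119 FPKM in F2 IUO 2 and F2 IUO 4. F2 IUO 1 was the lowest library for Rgs9, Gnal and Gng7. The Rgs9 fold change of -0.56 did not pass (exact permutation p = 0.2, limma p = 0.0743, adjusted p = 0.606), and without F2 IUO 4 it was -0.77 (adjusted p = 0.556). In F1, Rgs9 was 27.8, 64.4, 69.3 and 50.8 FPKM in F1 SAL, 41.0, 27.6, 39.6 and 40.5 FPKM in F1 PNO and 56.1, 60.5, 39.8 and 43.4 FPKM in F1 IUO. F1 IUO was higher than F1 PNO (log2 fold change 0.42, SE 0.175, exact permutation p = 0.0857, limma p = 0.0373, adjusted p = 0.27), with overlap between F1 IUO 3 and the PNO libraries, a call lost without F1 PNO 2, F1 IUO 1 or F1 IUO 2 (log2 fold change 0.29 to 0.52 with 1 library left out). The tables give 1 value per gene, so splice forms of Rgs9 were not separated.

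Rgs4, an RGS protein of Gi and Gq signalling, went the other way in F1. It was 80.0, 60.8, 41.8 and 58.2 FPKM in F1 SAL, 76.1, 80.8, 86.2 and 75.4 FPKM in F1 PNO and 47.6, 64.4, 50.3 and 80.3 FPKM in F1 IUO. The PNO libraries were high and close together, and 1 library of each other group reached them. F1 PNO was higher than F1 SAL by a ratio of 1.32 (log2 fold change 0.44, SE 0.171, exact permutation p = 0.0857, limma p = 0.0295, adjusted p = 0.308), and F1 IUO was lower than F1 PNO by a ratio of 0.761 (log2 fold change -0.42, SE 0.16, exact permutation p = 0.0857, limma p = 0.026, adjusted p = 0.238). The first call was lost without F1 SAL 3, F1 SAL 4, F1 PNO 2 or F1 PNO 3 (log2 fold change 0.28 to 0.59 with 1 library left out), and the second without F1 PNO 2, F1 PNO 3, F1 IUO 1 or F1 IUO 3 (log2 fold change -0.57 to -0.32 with 1 library left out). In F2, Rgs4 was 55.9, 53.0, 56.6 and 67.5 FPKM in F2 SAL, 38.8, 67.2, 58.0 and 72.1 FPKM in F2 PNO and 67.5, 81.1, 58.6 and 62.3 FPKM in F2 IUO, with overlap between all 3 groups and no call.

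Within a generation, Arrb2 was called in the contrasts that hold F2 IUO and Arrb1 in F1 IUO against PNO. Arrb2 was 26.4, 21.2, 25.6 and 24.2 FPKM in F2 SAL, 20.9, 23.2, 24.1 and 26.6 FPKM in F2 PNO and 31.7, 30.6, 27.0 and 30.3 FPKM in F2 IUO. All F2 IUO libraries were above all other F2 libraries. F2 IUO exceeded F2 SAL by a ratio of 1.23 (log2 fold change 0.30, SE 0.106, exact permutation p = 0.0286, limma p = 0.0198, adjusted p = 0.553) and F2 PNO by a ratio of 1.26 (log2 fold change 0.34, SE 0.118, exact permutation p = 0.0286, limma p = 0.0182, adjusted p = 0.622). The call against saline was lost without F2 SAL 2 or F2 IUO 1 (log2 fold change 0.23 to 0.34 with 1 library left out), that against PNO without F2 IUO 1 (log2 fold change 0.28 to 0.40 with 1 library left out), and with upper-quartile rescaling the fold change against saline was 0.22 (adjusted p = 0.516). The F1 groups all overlapped for Arrb2, at 25.8 ± 1.61 FPKM in SAL, 24.1 ± 5.15 FPKM in PNO and 24.2 ± 1.72 FPKM in IUO.

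Arrb1 had its highest group mean in F1 IUO. Its values were 11.6, 12.8, 14.6 and 18.7 FPKM in F1 IUO, 8.87, 8.56, 9.59 and 11.6 FPKM in F1 PNO and 12.9, 10.5, 8.33 and 14.4 FPKM in F1 SAL. The F1 IUO libraries were just above all F1 PNO libraries, with a ratio of 1.49 (log2 fold change 0.56, SE 0.168, exact permutation p = 0.0286, limma p = 0.0081, adjusted p = 0.165), and overlapped with saline, where the log2 fold change was 0.33 (95% interval -0.13 to 0.78). That IUO against PNO call held without any single library. In F2, Arrb1 was 10.4, 7.93, 12.4 and 8.40 FPKM in F2 SAL, 1.54, 8.33, 7.29 and 14.1 FPKM in F2 PNO and 8.21, 10.8, 9.68 and 4.68 FPKM in F2 IUO. F2 PNO 1 was the lowest of all 24 libraries, and the fold change of F2 PNO against SAL went from -0.66 to -0.02 (adjusted p = 0.976) without it.

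The generations were then compared within each line. Among saline pups, 0 of 10 members were called between F2 and F1, where 8.48% of genes were. Among PNO pups, 1 was called (4.76% of genes; 2.63% lower): Rgs4 was lower in F2, with no overlap (3.34% of genes) and a log2 fold change of -0.47, exact permutation p = 0.0286, limma p = 0.0304, adjusted p = 0.948, a call lost without F1 PNO 2, F1 PNO 3 or F2 PNO 3 (log2 fold change -0.58 to -0.28 with 1 library left out). Among IUO pups, 4 were called (15.0% of genes). Gnal (-0.81, exact permutation p = 0.0286, limma p = 0.00121, adjusted p = 0.221), Gng7 (-0.92, exact permutation p = 0.0286, limma p = 0.00343, adjusted p = 0.227) and Arrb1 (-0.82, exact permutation p = 0.0286, limma p = 0.011, adjusted p = 0.239) were lower in F2 (9.65% of genes lower). Arrb2 was higher in F2 (0.31, exact permutation p = 0.0286, limma p = 0.0196, adjusted p = 0.26; 5.35% of genes higher). None of these 4 overlapped between generations (10.7% of genes), and 3 of them also differed 1.5-fold (8.51%). The Arrb2 call was lost without F1 IUO 2 or F2 IUO 1 (log2 fold change 0.27 to 0.35 with 1 library left out). Generation and the cohort in which the pups were raised cannot be told apart in these contrasts.

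Whether a treatment difference itself changed from F1 to F2 was tested as an interaction over 16 libraries. For IUO against PNO, 4 of 10 members were called (5.87% of genes). The Gnal difference went from 0.40 in F1 to -0.55 in F2, a change of -0.95 (SE 0.228, limma interaction adjusted p = 0.597). That of Gng7 went from 0.61 to -0.57, a change of -1.19 (SE 0.302, limma interaction adjusted p = 0.597). Both calls held without any single library, with changes of -1.12 to -0.84 for Gnal and -1.36 to -1.02 for Gng7. Rgs9 changed the same way by -0.82 (SE 0.37, limma interaction adjusted p = 0.845) and Rgs4 the opposite way by 0.64 (SE 0.269, limma interaction adjusted p = 0.826), calls lost without any 1 of 7 libraries for Rgs9 (log2 fold change -1.04 to -0.58 with 1 library left out) and of 5 for Rgs4 (log2 fold change 0.45 to 0.79 with 1 library left out). For IUO against SAL, 3 members were called (5.17% of genes): Gnal at -0.53 (SE 0.237, limma interaction adjusted p = 0.915), Gng7 at -0.78 (SE 0.367, limma interaction adjusted p = 0.915) and Arrb2 at 0.39 (SE 0.134, limma interaction adjusted p = 0.915). Of these, the Arrb2 call held without any single library, and those of Gnal and Gng7 were lost without any 1 of 9 libraries (log2 fold change -0.69 to -0.41 with 1 library left out) and of 10 libraries (log2 fold change -0.95 to -0.55 with 1 library left out). For PNO against SAL, 1 member was called (3.90% of genes), Gnal at 0.42 (SE 0.191, limma interaction adjusted p = 1), a call lost without any 1 of 10 libraries (log2 fold change 0.33 to 0.54 with 1 library left out).

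**Figure D3:**
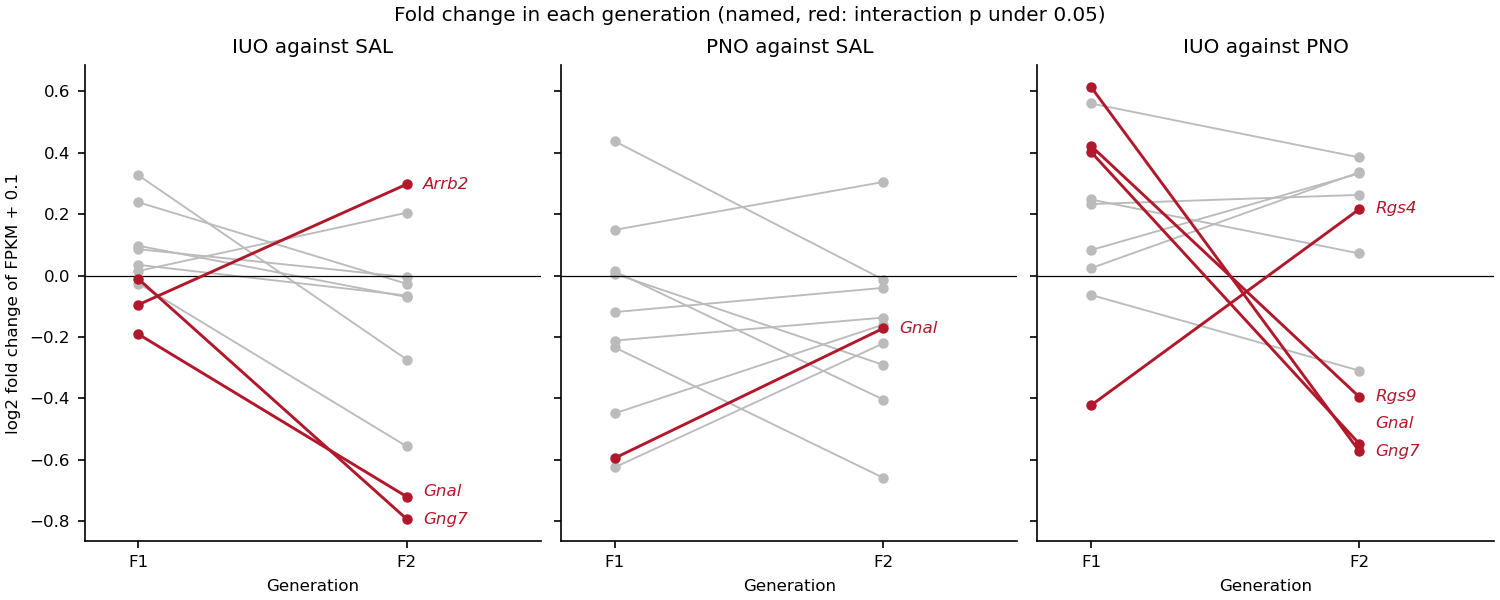
Fold change of each gene (y axis, log2 of FPKM + 0.1) in F1 and in F2 (x axis) for the 3 treatment comparisons; each line is 1 gene, and named red lines had an unadjusted interaction p under 0.05. In IUO against PNO, Gnal, Gng7 and Rgs9 cross from above 0 in F1 to below 0 in F2 while Rgs4 crosses upward.

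Gng7, Rgs9 and Gnal followed the level of the 12 SPN markers, genes of the main output neurons of the striatum. Of 30 relations between a member and a marker list, 14 had an adjusted p of r under 0.05. Over the 24 libraries, Rgs9 (r = 0.926, rho = 0.887) and Gng7 (r = 0.918, rho = 0.900) tracked the mean log2 marker level most closely, each with a permutation p of 1e-05, the smallest that 100000 permutations give. Without F2 IUO 1 and F1 SAL 3, the 2 libraries farthest from the median, r was 0.890 and 0.873, and centred on group means 0.907 and 0.905. Gnal followed it less closely (r = 0.700, rho = 0.622, permutation p = 0.00018 and 0.00176, adjusted over 30 relations 0.0018 and 0.0122; r = 0.553 without those 2 libraries and 0.560 centred). Rgs4 was inverse to it (r = -0.492, rho = -0.530, permutation p = 0.0152 and 0.00939, adjusted 0.0424 and 0.0347; r = -0.411 without those 2), and centred on group means its r was -0.357 (adjusted permutation p = 0.18). Member and marker levels come from the same libraries, and so share their scaling.

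**Figure D4:**
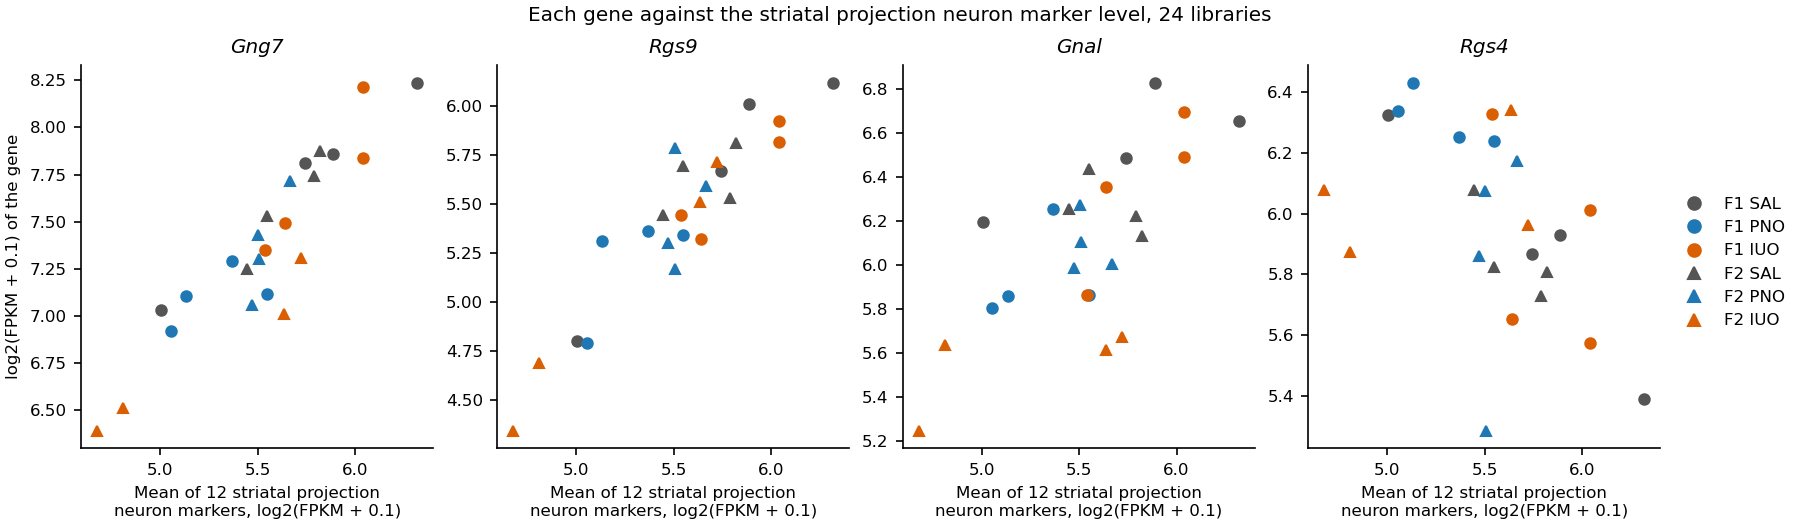
Level of Gng7, Rgs9, Gnal and Rgs4 (y axis, log2(FPKM + 0.1)) against the mean level of 12 striatal projection neuron markers (x axis, same unit), 1 point per library (circles F1, triangles F2; grey SAL, blue PNO, orange IUO). Gng7 (r = 0.918) and Rgs9 (r = 0.926) lie along a line, and the 4 F2 IUO libraries lie at the bottom of the Gnal panel at both low and mid marker levels.

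Markers of neighbouring tissue moved with other members. With the 7 cortex markers, r was 0.581 for Gnai1, 0.594 for Gnao1, 0.613 for Rgs4 and 0.532 for Arrb1 (rho 0.579, 0.517, 0.416 and 0.361; adjusted permutation p of r 0.0294, 0.0294, 0.00984 and 0.0429). Without F1 SAL 3 and F2 PNO 1, the 2 libraries poorest in cortex markers, r fell to 0.257, 0.368, 0.225 and 0.196. Before centring, the size of r in these 4 relations thus rested on those libraries. With all libraries kept, the adjusted permutation p of rho passed for Gnai1 (0.018) and Gnao1 (0.0347). It did not pass for Rgs4 (0.118) and Arrb1 (0.167). Centred on group means with all libraries kept, r was 0.706, 0.690, 0.663 and 0.742 (adjusted permutation p = 0.00165, 0.00165, 0.0024 and 0.000675). The centred r was not computed without F1 SAL 3 and F2 PNO 1, so whether it also rests on those 2 libraries was not tested. With the 6 thalamus markers, Gng7 was inverse (r = -0.652, rho = -0.641, adjusted permutation p = 0.0042 and 0.0105; r = -0.626 without F2 SAL 2 and F1 SAL 4). Rgs9 was inverse as well (r = -0.555, rho = -0.606, adjusted permutation p = 0.0236 and 0.0122), and Rgs4 was direct (r = 0.537, rho = 0.539, adjusted permutation p = 0.0294 and 0.0328), with r of -0.575 and 0.524 without those libraries. Centred on group means, r was -0.768 for Gng7, -0.530 for Rgs9 and 0.371 for Rgs4 (adjusted permutation p = 0.0001, 0.0254 and 0.174). The remaining relations with an adjusted p under 0.05 were inverse, those of Gnal (r = -0.477, rho = -0.400) and Rgs9 (r = -0.468, rho = -0.290) with cortex markers and of Gnai2 (r = -0.492, rho = -0.418) with thalamus markers, with adjusted permutation p of r of 0.0429, 0.047 and 0.0424. The adjusted permutation p of rho (0.125, 0.298 and 0.118) and of r centred on group means (0.245, 0.168 and 0.245) did not pass for these 3.

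In the comparisons with member calls, the marker lists had the following levels. Ranges are of summed FPKM, while the exact permutation tests and the check for overlap used the mean log2(FPKM + 0.1) of each list. By that mean, the groups of the SPN, cortex and thalamus lists overlapped in each of these comparisons. In F1 PNO against F1 SAL, 12 of 12 SPN markers had a lower mean in PNO (summed level 635 to 873 FPKM against 604 to 1516 FPKM, exact permutation p = 0.2) and 6 of 6 thalamus markers a higher mean (118 to 302 against 22.8 to 148 FPKM, exact permutation p = 0.0571). In F1 IUO against F1 PNO the same lists went the other way, 12 of 12 higher (exact permutation p = 0.0571) and 6 of 6 lower in IUO (exact permutation p = 0.0857). In that comparison, 2 of the 10 lists had groups that did not overlap. The hypothalamus markers summed to 46.1 to 162 FPKM in IUO and 6.30 to 15.7 FPKM in PNO, with 7 of 8 higher (exact permutation p = 0.0286), and the microglia markers to 159.5 to 194.5 FPKM and 115 to 146 FPKM, with 7 of 7 higher (exact permutation p = 0.0286). In F2 IUO against F2 SAL, 12 of 12 SPN markers had a lower mean in IUO (499 to 1119 against 893 to 1164 FPKM, exact permutation p = 0.257) and 7 of 7 cortex markers a higher mean (189 to 369.98 against 138 to 234 FPKM, exact permutation p = 0.0571). There, 7 of 7 microglia markers (exact permutation p = 0.0571) and 4 of 4 endothelium markers (exact permutation p = 0.0857) also had a lower mean in IUO. The mean of 12 of 12 SPN markers was also lower in F2 IUO than in F2 PNO (exact permutation p = 0.4) and than in F1 IUO (exact permutation p = 0.143). In F2 PNO against F1 PNO, where Rgs4 was called, 11 of 12 SPN markers had a higher mean in F2 (exact permutation p = 0.114). There, 6 of 6 thalamus markers (exact permutation p = 0.0857) and 6 of 7 cortex markers (exact permutation p = 0.6) had a lower mean in F2. No marker of the SPN, cortex or thalamus lists was at 0 in all 4 libraries of a group. The part of tissue composition in the members' differences was not tested. The covariate fits given next cannot tell a change in composition from a change in the RNA of the marker genes themselves.

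The marker level of each library was also put into limma as a covariate. With SPN markers, the F2 IUO against SAL fold change of Gnal was -0.64 (adjusted p = 0.177) against -0.72 without it, and that of Gng7 was -0.43 (adjusted p = 0.233) against -0.79. Both kept an unadjusted p under 0.05, as did Arrb2 at 0.31 (adjusted p = 0.322), while Rgs9 went from -0.56 to -0.07 (adjusted p = 0.831). With thalamus markers in place of SPN markers, Gnal was -0.72 (adjusted p = 0.142), and with cortex markers -0.56 (adjusted p = 0.477), and it kept its call in both. With cortex markers, Gng7 kept its call at -0.77 (adjusted p = 0.491) and Arrb2 lost it at 0.32 (adjusted p = 0.523). In F1 PNO against SAL, Gnal was -0.41 (adjusted p = 0.644) with SPN markers and -0.42 (adjusted p = 1) with thalamus markers, Gng7 -0.23 (adjusted p = 0.691) and -0.14 (adjusted p = 1), and Rgs4 0.15 (adjusted p = 0.757) and 0.13 (adjusted p = 1). Of these values, that of Gnal with SPN markers was the only one called. In F1 IUO against PNO, the SPN covariate took Gnal to -0.03 (adjusted p = 0.962), Gng7 to 0.11 (adjusted p = 0.846) and Rgs9 to -0.09 (adjusted p = 0.865), all uncalled, while Arrb1 was called at 0.74 (adjusted p = 0.385). The interaction of IUO against PNO kept its call for Gnal at -0.61 (adjusted p = 0.512) and lost it for Gng7 at -0.45 (adjusted p = 0.591). In F2 PNO against F1 PNO, 0 members were called with the SPN covariate and 0 with the thalamus covariate, so Rgs4 lost its call in both. With the cortex covariate, 2 members were called there.

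**Figure D5:**
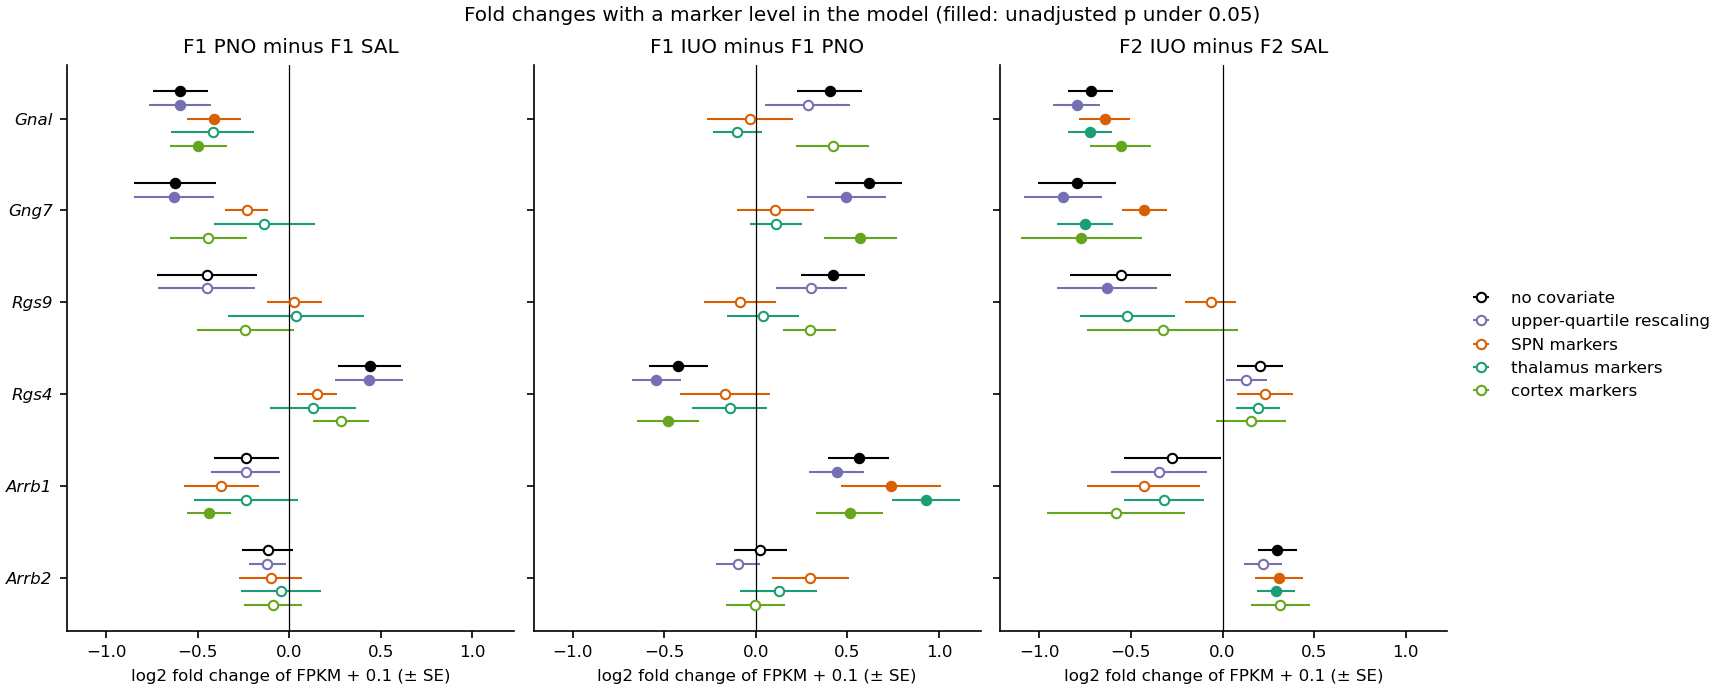
Fold change of 6 members (x axis, log2 of FPKM + 0.1, with its SE) in 3 comparisons, with no covariate, with upper-quartile rescaling, or with a marker level (SPN, thalamus or cortex) in the model; filled points had an unadjusted p under 0.05. For F2 IUO minus SAL, Gnal stays between -0.80 and -0.56 in all 5 settings, while for F1 IUO minus PNO it crosses 0 with SPN or thalamus markers.

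Around these members, 76 further Ensembl entries of pathway genes (other subunits, RGS proteins, chaperones, receptor kinases, receptors and effectors) were found, and 73 of them were tested in each comparison. Gnas appears under both ENSRNOG00000025889 and ENSRNOG00000047374, and each entry is counted as a gene below. In F1, the calls numbered 4 of 73 in IUO against SAL (5.48%, beside 3.91% of all genes), 15 in PNO against SAL (20.5% beside 13.9%) and 26 in IUO against PNO (35.6% beside 16.5%). In F2, they numbered 11 in IUO against SAL (15.1% beside 8.49%), 5 in PNO against SAL (6.85% beside 10.8%) and 6 in IUO against PNO (8.22% beside 7.07%). None had an adjusted p under 0.05. The median log2 fold change of the list in F1 IUO against PNO was 0.21, beside 0.03 over all genes, and in F2 IUO against SAL it was -0.11, beside -0.08. The list shares Drd1, Drd2, Adora2a, Ppp1r1b, Pde10a and Pde1b with the SPN markers.

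The effectors (cyclases, phosphodiesterases, kinase subunits, channels and Ppp1r1b) are given by their counts, without a test of the group. In F1 IUO against PNO, 7 of 16 effectors were higher and 0 lower, where 10.1% of all genes were higher. Adcy5, the main adenylyl cyclase of striatum, was 71.8 ± 5.23 against 43.3 ± 6.23 FPKM (log2 fold change 0.74, adjusted p = 0.0695), Adcy1, a calcium-stimulated cyclase, was 20.8 ± 2.55 against 8.95 ± 2.69 FPKM (log2 fold change 1.25, adjusted p = 0.0721) and Prkacb, a catalytic subunit of protein kinase A, was 91.5 ± 10.3 against 57.6 ± 5.63 FPKM (log2 fold change 0.67, adjusted p = 0.0721). In F1 PNO against SAL, 4 effectors were lower and 0 higher, where 7.83% of all genes were lower. Prkacb was 57.6 ± 5.63 against 87.1 ± 6.50 FPKM (log2 fold change -0.60, adjusted p = 0.231). The nociceptin receptor Oprl1 was 5.62 ± 0.603 against 7.89 ± 0.514 FPKM (log2 fold change -0.49, adjusted p = 0.231), and the gamma subunit Gng10 was 111 ± 3.19 against 85.6 ± 10.1 FPKM (log2 fold change 0.39, adjusted p = 0.231). In F2 IUO against SAL, 5 effectors were lower and 0 higher, where 4.97% of all genes were lower. Adcy5 was 41.3 ± 12.5 against 61.2 ± 5.71 FPKM (log2 fold change -0.61, adjusted p = 0.501), Prkar2b, a regulatory subunit of protein kinase A, was 41.0 ± 2.01 against 50.9 ± 4.93 FPKM (log2 fold change -0.31, adjusted p = 0.538) and Gng10 was 123 ± 19.1 against 89.6 ± 6.27 FPKM (log2 fold change 0.45, adjusted p = 0.429).

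The other comparisons held fewer such genes. In F1 IUO against SAL, the smallest p belonged to Adcy1, at 20.8 ± 2.55 against 13.2 ± 5.62 FPKM (log2 fold change 0.75, adjusted p = 0.999), the delta opioid receptor Oprd1, at 1.66 ± 0.454 against 0.91 ± 0.364 FPKM (log2 fold change 0.84, adjusted p = 0.999), and the beta subunit Gnb4, at 28.8 ± 5.70 against 21.2 ± 3.67 FPKM (log2 fold change 0.44, adjusted p = 0.999). In F2 PNO against SAL, all 5 were lower. They included Gpsm1, a guanine dissociation inhibitor, at 32.3 ± 4.03 against 45.8 ± 1.93 FPKM (log2 fold change -0.51, adjusted p = 0.343), and the dopamine receptors Drd3, at 0.0825 ± 0.0602 against 0.39 ± 0.2 FPKM (log2 fold change -1.42, adjusted p = 0.374), near the pseudocount, and Drd5, at 0.505 ± 0.0858 against 1.19 ± 0.449 FPKM (log2 fold change -1.03, adjusted p = 0.386). In F2 IUO against PNO, 2 gamma subunits were higher, Gng3 at 610.2 ± 85.0 against 461 ± 58.5 FPKM (log2 fold change 0.40, adjusted p = 0.64) and Gng13 at 118 ± 49.4 against 69.5 ± 2.40 FPKM (log2 fold change 0.67, adjusted p = 0.64). The gamma subunit Gng11 was lower there, with means of 1.08 against 2.97 FPKM (log2 fold change -2.29, SE 0.936, adjusted p = 0.67), as was Prkar2b, at 41.0 ± 2.01 against 50.0 ± 5.01 FPKM (log2 fold change -0.28, adjusted p = 0.645). Gng11 ran from 0 to 4.42 FPKM over the 24 libraries, so its log2 fold change can depend on the pseudocount.

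Between generations, 6 of 73 pathway genes were called in SAL (8.22%, beside 8.48% of all genes), 24 in IUO (32.9% beside 15.0%) and 5 in PNO (6.85% beside 4.76%). The SAL share was thus at the background. Of the 24 in IUO, 20 were lower in F2 (9.65% of all genes lower), among them 8 of 16 effectors. Adcy5 was 41.3 ± 12.5 against 71.8 ± 5.23 FPKM (log2 fold change -0.84, adjusted p = 0.221), the G alpha chaperone Ric8b was 5.00 ± 0.604 against 8.13 ± 0.557 FPKM (log2 fold change -0.69, adjusted p = 0.221) and the striatal phosphodiesterase Pde10a was 12.01 ± 5.27 against 27.3 ± 8.15 FPKM (log2 fold change -1.22, adjusted p = 0.221), F2 against F1. The SAL genes with the smallest p were the alpha subunit Gnaq, at 20.9 ± 1.69 against 26.9 ± 1.94 FPKM (log2 fold change -0.36, adjusted p = 0.569), Gng8, at 4.58 ± 0.752 against 3.25 ± 0.367 FPKM (log2 fold change 0.47, adjusted p = 0.569), and Prkacb, at 72.6 ± 7.43 against 87.1 ± 6.50 FPKM (log2 fold change -0.27, adjusted p = 0.573). In PNO, Drd3 was lower in F2, at 0.0825 ± 0.0602 against 0.515 ± 0.215 FPKM (log2 fold change -1.74, adjusted p = 0.824). Rgs14 was higher, at 12.7 ± 1.43 against 8.94 ± 1.67 FPKM (log2 fold change 0.51, adjusted p = 0.917), and so was Adora2a, at 54.5 ± 7.11 against 41.1 ± 5.74 FPKM (log2 fold change 0.41, adjusted p = 0.948).

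Members also varied with each other within groups. On group-centred log2 values over the 24 libraries, Gnai1 and Arrb1 went together most closely (r = 0.895), followed by Gnao1 and Arrb1 (0.867), Gng7 and Rgs9 (0.832), and Gnai1 and Gnao1 (0.737). Gnal went with Gng7 (0.626) and Rgs9 (0.567). Gnai3 and Rgs9 were the most opposed pair (-0.539). Among 13677 genes with a mean of at least 1 FPKM, the genes most like Gng7 in this measure were the adenosine receptor Adora2a (r = 0.907) and the dopamine receptor Drd2 (0.900), and those most like Rgs9 were Ppp1r1b (DARPP-32; 0.944) and Asic4 (0.917). For Gnal they were Gpr149 (0.739) and Pianp (0.737), and for Rgs4 Kifap3 (0.878) and Olfm1 (0.874). For Arrb1 they were Tln2 (0.965) and Add2 (0.964), for Arrb2 Cdk4 (0.833) with Ccdc86 next, for Gnao1 Lrrc7 (0.962) and Socs7 (0.948), and for Gnai1 Hnrnph2 (0.965) and Kbtbd6 (0.962). For Gnai2 they were Fgfrl1 (0.877) and Mlc1 (0.863), and for Gnai3 Syde1 (0.855) and Gca (0.848). These values describe 24 libraries that share 6 groups, and 13677 genes were searched for each member. F2 PNO 1 was the lowest of the 24 libraries for Gnai1, Gnao1 and Arrb1 (9.03, 85.7 and 1.54 FPKM). F2 IUO 4 was the lowest of its group for these genes (17.6, 160 and 4.68 FPKM). No r between members or with the most alike genes was computed without these libraries. Whether the r of Gnai1, Gnao1 and Arrb1 rest on them was thus not tested.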

How the data were processed

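RNA-Seq libraries were made from the NAc of 24 P14 rats (6 groups of 4, grouped by the labels). The submitters' processing notes name HISAT2, SAMtools and StringTie. The authors deposited 1 table of FPKM per library, made with StringTie and rounded to 2 decimals; aligner settings and genome build are not given in the sources used here. FPKM hold no read depth, so no counting interval was computed, and precision rests on the spread of 4 libraries. Replicates were pups of separate litters (replicate r of 0.8847 to 0.9632).

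Members and lists were chosen with earlier results of these data known. All 10 members are named in every comparison. The other pathway genes are given as counts, and the 3 with the smallest p in each comparison are named; Gng11 in F2 IUO against PNO was added after its values were seen. Genes with at least 0.1 FPKM in 4 of 8 libraries (8 of 16 for interactions) were tested with limma 3.58.1 in R 4.3.3 (lmFit, eBayes with trend, two-sided) on log2(FPKM + 0.1), with Benjamini-Hochberg adjustment over all genes tested. The study tested pairs of groups with edgeR, which needs counts and was not used here, and its threshold for p was kept. Exact permutation tests (two-sided) covered the 35 splits of 4 against 4, with a smallest p of 0.0286. Relations to marker levels used 100000 permutations in numpy 2.4.6. The fit was tested on simulated data. Alternatives were a pseudocount of 1, other filters, upper-quartile rescaling, 1 fit of all libraries, a replicate block, marker covariates and leaving out each library.

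The SPN list shares Drd1, Drd2, Adora2a, Ppp1r1b, Pde10a and Pde1b with the pathway list.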

Additional observations from a re-analysis of the deposited data

Results flagged for a closer look

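A library stood apart from the other 3 of its group in 6 of 60 combinations of member and group, where Dixon's criterion at 95% marks about 3 by chance. The distance to its nearest neighbour divided by the whole range of the group was 0.885 for F1 PNO 1 (high) and 0.85 for F2 IUO 1 (low) in Gnal. It was 0.868 for F1 PNO 3 (high) and 0.903 for F2 IUO 4 (low) in Gnai1. It was 0.907 for F2 SAL 3 (high) in Gnao1 and 0.898 for F1 PNO 2 (low) in Rgs9.

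The treatment difference itself changed between generations at an unadjusted limma interaction p under 0.05 in 8 of 30 tests. For IUO against PNO, the log2 fold change moved from F1 to F2 by -0.952 for Gnal, -1.188 for Gng7, 0.640 for Rgs4 and -0.819 for Rgs9. For IUO against SAL, it moved by -0.529 for Gnal, -0.784 for Gng7 and 0.392 for Arrb2. For PNO against SAL, it moved by 0.423 for Gnal. None of the 8 passed the adjustment over all genes, the smallest adjusted p being 0.597, and F1 and F2 pups were also different cohorts.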

How the results depend on the processing

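No member had an adjusted p under 0.05 in any of 2280 refitted fold changes. Of these, 2096 kept their side of the threshold on the unadjusted p, 129 lost a call, 49 gained one and 6 reversed. The sign changed in 127 of the 2280, the 6 reversed values included. Reversed values were, in F1 IUO against PNO, Gnal at -0.034 (SPN covariate) and -0.102 (thalamus covariate) and Rgs9 at -0.087 (SPN), in F2 IUO against PNO, Arrb1 at -0.666 (cortex), in the interaction of IUO against PNO, Rgs9 at 0.150 (SPN), and in F2 IUO against SAL, Gnai1 at 0.281 without F2 IUO 4 (range over left-out libraries -0.140 to 0.281). The cause was not tested. Counts of members called moved as follows. With the SPN covariate they were 1 in F1 IUO against SAL, 1 in F1 PNO against SAL, 2 in F1 IUO against PNO, 0 between PNO generations, and 0 (PNO against SAL) and 1 (IUO against PNO) among interactions. With the thalamus covariate they were 0 in F1 PNO against SAL, 1 in F1 IUO against PNO, 1 between SAL and 0 between PNO generations, and 0 and 2 in the same interactions. With the cortex covariate they were 3 in F1 IUO against PNO, 1 between SAL and 2 between PNO generations, and 0 in the PNO against SAL interaction. With upper-quartile rescaling they were 3 in F1 IUO against PNO, 1 in F2 PNO against SAL, 1 between SAL and 2 between PNO generations, and 1 in the IUO against SAL interaction. It shifted the median of all genes by -0.119 in F1 IUO against SAL, -0.115 in F1 IUO against PNO and -0.161 in F2 IUO against PNO. With 1 fit of all 24 libraries they were 2 between PNO generations and 0 in the PNO against SAL interaction. With the replicate block, that interaction had 0, F1 IUO against PNO had 5 against 6, with Rgs9 lost, and the other counts were also within 1.5 times of those without it. The numbers were not taken to pair libraries, since in 0 of 9 comparisons did all 4 same-numbered pairs correlate above 0.1 in their deviations from group means, but 3 of 4 did in F1 IUO against PNO (0.103, 0.167 and 0.157). A 1.5-fold threshold left 1 in F1 IUO against PNO, 0 in F2 IUO against PNO and 0 between PNO generations, and a 2-fold threshold left 0 in every comparison. Leaving out 1 library gave 0 to 1 calls in F1 IUO against SAL (1 without F1 IUO 1), 1 to 6 in F1 PNO against SAL, 2 to 6 in F1 IUO against PNO, 2 to 5 in F2 IUO against SAL, 0 to 1 in F2 PNO against SAL (1 without F2 PNO 1) and 2 to 4 in F2 IUO against PNO. Between generations it gave 0 to 1 in SAL (1 without F1 SAL 1, F1 SAL 3 or F2 SAL 3), 3 to 5 in IUO and 0 to 1 in PNO (0 without F1 PNO 2), and among interactions 1 to 3 (IUO against SAL), 0 to 4 (PNO against SAL; 4 without F1 SAL 1) and 2 to 4 (IUO against PNO; 2 without F1 IUO 1). Relations to markers with an adjusted p under 0.05 numbered 9 when centred on group means, against 14. Read depth was not given, so its limits are unknown.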
